A study of Mus musculus with 4 samples.

Results

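The genes described are 9 antimicrobial and protease-inhibitor genes of the epidermis, taken from the deposited gene table by their symbols. They are the beta-defensins Defb1, Defb3, Defb4, Defb6 and Defb14, lipocalin 2 (Lcn2), the secretory leukocyte peptidase inhibitor (Slpi), and the whey-acidic-protein genes Wfdc5 and Wfdc12. All 9 were among the 56493 genes of the table, each as 1 row. Only 3 of them (Defb6, Defb1 and Wfdc5) had more than 3 counts in any library and could be tested; 4 (Wfdc12, Defb14, Slpi and Lcn2) had at most 3 counts in every library, and 2 (Defb3 and Defb4) had no count. A library with 0 counts of a gene allows a true value of up to 3 counts, so the last 6 are called under detection.

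RNA came from the epidermis of dorsal mouse skin, split from the dermis by sodium thiocyanate, and libraries read the 3' ends of transcripts. The knockout group (cKO, 2 libraries) had Stim1 and Stim2 deleted in epithelium by K14-Cre, a recombinase that the promoter of keratin 14 drives in keratinocytes of the epidermis and its follicles. The control group (2 libraries, labelled Flox/Flox) was Stim1/2 fl/fl, with both genes floxed. Age, sex, strain, the number of animals behind a library and whether control mice lacked Cre are not given in the sources used here, so p-values measure only the spread between these libraries. STIM1 and STIM2 sense a fall of calcium in the endoplasmic reticulum and then gate ORAI channels in the plasma membrane. The comparison addressed how loss of both sensors changes epidermal RNA, here of genes for secreted defence proteins.

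Beta-defensins are short cationic peptides, held together by disulfide bonds, that epithelia secrete and that damage microbial membranes; several also attract immune cells through the chemokine receptor CCR6. Some are made constantly, while others, such as Defb3, Defb4 and Defb14, are known to be induced by microbes, wounding or cytokines such as interleukin 17. Whey-acidic-protein (WAP) domains are cysteine-rich folds found in small secreted inhibitors of serine proteases, several of which also kill bacteria. Lipocalin 2 withholds iron from bacteria by binding their siderophores, and SLPI inhibits neutrophil elastase.

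The coding sequences show what the members share apart from their names, and are printed for the most abundant member (Defb6), its undetected relative (Defb3), the member that varied most between libraries (Defb1) and the WAP gene with counts only in cKO (Wfdc12). They are read 5' to 3' from GENCODE M21 transcripts, in lower case with in-frame cysteine codons (TGT or TGC) in capitals.
Defb6: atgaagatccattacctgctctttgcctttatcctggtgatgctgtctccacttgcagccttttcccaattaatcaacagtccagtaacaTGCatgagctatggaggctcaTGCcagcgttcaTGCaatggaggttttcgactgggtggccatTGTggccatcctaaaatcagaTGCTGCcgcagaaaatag
Defb3: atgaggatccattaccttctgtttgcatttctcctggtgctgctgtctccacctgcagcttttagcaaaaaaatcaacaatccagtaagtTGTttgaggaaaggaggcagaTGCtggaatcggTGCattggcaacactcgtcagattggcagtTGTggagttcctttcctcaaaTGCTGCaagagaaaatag
Defb1: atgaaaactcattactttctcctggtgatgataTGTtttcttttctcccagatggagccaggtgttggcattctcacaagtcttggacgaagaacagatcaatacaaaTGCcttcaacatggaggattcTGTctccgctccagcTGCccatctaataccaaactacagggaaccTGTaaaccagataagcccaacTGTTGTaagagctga
Wfdc12: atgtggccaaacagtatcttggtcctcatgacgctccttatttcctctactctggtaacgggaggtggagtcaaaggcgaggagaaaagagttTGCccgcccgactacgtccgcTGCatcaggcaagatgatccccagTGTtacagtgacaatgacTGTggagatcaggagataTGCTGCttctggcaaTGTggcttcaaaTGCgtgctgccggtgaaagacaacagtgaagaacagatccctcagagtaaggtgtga
The last 6 cysteine codons of all 5 defensin genes followed 1 spacing, with gaps of 6 codons, then 3 (Defb3, Defb4, Defb6) or 4 (Defb1, Defb14), then 9, 6 and 0. Wfdc12 had 8 cysteine codons over 85 codons. The same closing pattern, with 5, 5, 0, 3 and 3 codons between cysteines, stood once in Wfdc12 and came again in a second copy in Wfdc5 (17 cysteine codons in 126) and Slpi (17 in 131). Lcn2, a lipocalin and no WAP protein, had 3 cysteine codons in 200.

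The coding sequence of Defb6 was 71.9% identical to that of Defb3 and 78.6% identical to that of Defb4 over 192 aligned bases. By blastn of whole transcripts, no other gene matched any of the 9 at 95% identity or more across 150 bases or more. The match of Defb6 with the highest identity over at least 100 bases was Defb5, at 84.5% over 103 bases. How reads that align to several genes were handled is not stated, and its part in the counts was not tested.

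The start regions of Defb6 and Defb3 are printed next because these related genes had 160 counts and 0 counts over the same 4 libraries. They lie 65.15 kb apart, with 3 genes between them. Sequences are from RefSeq (GRCm38.p6), 250 bases before the annotated start, on the plus strand of the chromosome. Of the 9 members, 5 matched an entry of the RefSeq promoter table (Defb3, Defb6, Lcn2, Slpi and Wfdc12). Defb4, which lies nearer to Defb6 (23.9 kb) and also had 0 counts, had no entry. Capitals mark the C/EBP-type motif TTGCNNAA on either strand and the TATA element TATATAA, searched on the gene's strand.
Defb6, chr8:19225228-19225477: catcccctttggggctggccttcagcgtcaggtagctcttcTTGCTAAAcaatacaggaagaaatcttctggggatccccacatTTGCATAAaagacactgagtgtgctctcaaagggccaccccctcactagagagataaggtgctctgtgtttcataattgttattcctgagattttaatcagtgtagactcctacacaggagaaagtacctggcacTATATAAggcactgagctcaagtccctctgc
Defb3, chr8:19293111-19293360: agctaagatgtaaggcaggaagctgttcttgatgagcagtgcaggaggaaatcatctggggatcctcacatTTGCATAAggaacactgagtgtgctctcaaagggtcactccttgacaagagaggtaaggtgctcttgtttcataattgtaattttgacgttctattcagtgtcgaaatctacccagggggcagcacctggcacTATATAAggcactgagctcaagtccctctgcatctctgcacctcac
The aligned stretch of 237 columns was 80.2% identical, with 35 mismatches and 12 gap columns. Both hold TATATAA, 31 bases before the start in Defb6 and 46 in Defb3, a string present in 2.20% of the 32851 promoters of the table (from 250 bases before to 50 after the start).

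The motifs of 5 factor families were searched on both strands of the same windows. TTGCNNAA was found in 5 of 5 member promoters and in 10.8% of all promoters. The match TTGCATAA stands in the aligned stretch of both Defb6 and Defb3, so the 5 promoters are not independent. The kappaB-type motif, GGG and CC separated by 5 bases, was found in 4 of 5 (all but Slpi) and in 50.8% of all promoters. GGAAA, the core bound by NFAT factors, was found in 3 of 5 (Defb3, Lcn2 and Wfdc12) and in 61.3%. The AP-1 motif TGANTCA (7.81% of all promoters) and the STAT motif TTCNNNGAA (8.30%) were in none of the 5 windows. No TTGCNNAA match overlapped a match of the other 4 motifs. The stretches of 30 bases around the match in the other 3 genes, in capitals, read as follows on the gene's strand (minus).
Lcn2, chr2:32387937-32387966: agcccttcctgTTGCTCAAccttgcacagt
Slpi, chr2:164356728-164356757: gaatttgtaTTGAGCAAtaggttagagttt
Wfdc12, chr2:164190778-164190807: gcagagacttcTTGTGCAAacagaggatct
These are matches of letters in a small, chosen set of promoters, found beside Defb6, which had counts in every library, and beside Defb3, which had none.

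Depth set what could be seen. Total counts ran from 118858 (cKO replicate 2) to 322426 (control replicate 2). The 3 counts that a count of 0 allows came to 12.1 CPM in cKO replicate 1, 33.7 CPM in cKO replicate 2, 16.0 CPM in control replicate 1 and 9.58 CPM in control replicate 2 (CPM are counts scaled to a common library size, here with TMM factors). Limits and intervals of this kind cover counting error only. Markers of basal, suprabasal and granular keratinocytes were detected in full (6 of 6 each), and skeletal muscle markers, summed, stood at 44.5 and 89.9 CPM in cKO against 1387 and 917 CPM in control. Stim1 was at 80.2 ± 18.1 CPM in cKO and 163 ± 49.4 CPM in control (SD, n = 2), a difference that did not pass (log2 fold change -0.98, edgeR adjusted p 0.671), and Stim2 was at 0, 1 (cKO), 3 and 18 counts (control). In bulk tissue, fewer cells of a type and less RNA per cell cannot be told apart.

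No tested member was called in either direction, and the genes under detection were not tested in this fit. By edgeR's quasi-likelihood test with Benjamini-Hochberg adjustment over 4243 tested genes, 0 of the 3 tested members passed an adjusted p of 0.05, where 0.848% of all tested genes did (28, or 0.66%, higher and 8, or 0.189%, lower in cKO). At an unadjusted p under 0.05 the count was also 0 of 3, where 8.39% of tested genes passed. DESeq2 and limma-voom called 0 of these 3 as well. Together the 9 genes took 88 (cKO replicate 1), 37 (cKO replicate 2), 46 (control replicate 1) and 81 counts (control replicate 2). As a share of all counts that was 0.0312% (95% Wilson interval 0.0253% to 0.0384%) and 0.0311% (0.0226% to 0.0429%) in cKO, and 0.0230% (0.0172% to 0.0306%) and 0.0251% (0.0202% to 0.0312%) in control. Both cKO shares were above both control shares, but every interval overlapped the others. For single tested genes under TMM scaling, the groups did not overlap in 38.5% of cases. Defb6 gave most of each sum (50 and 26 counts in cKO, 34 and 50 in control). The intervals cover counting error within a library only, and the sum over the 9 genes was not tested.

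**Figure D1:**
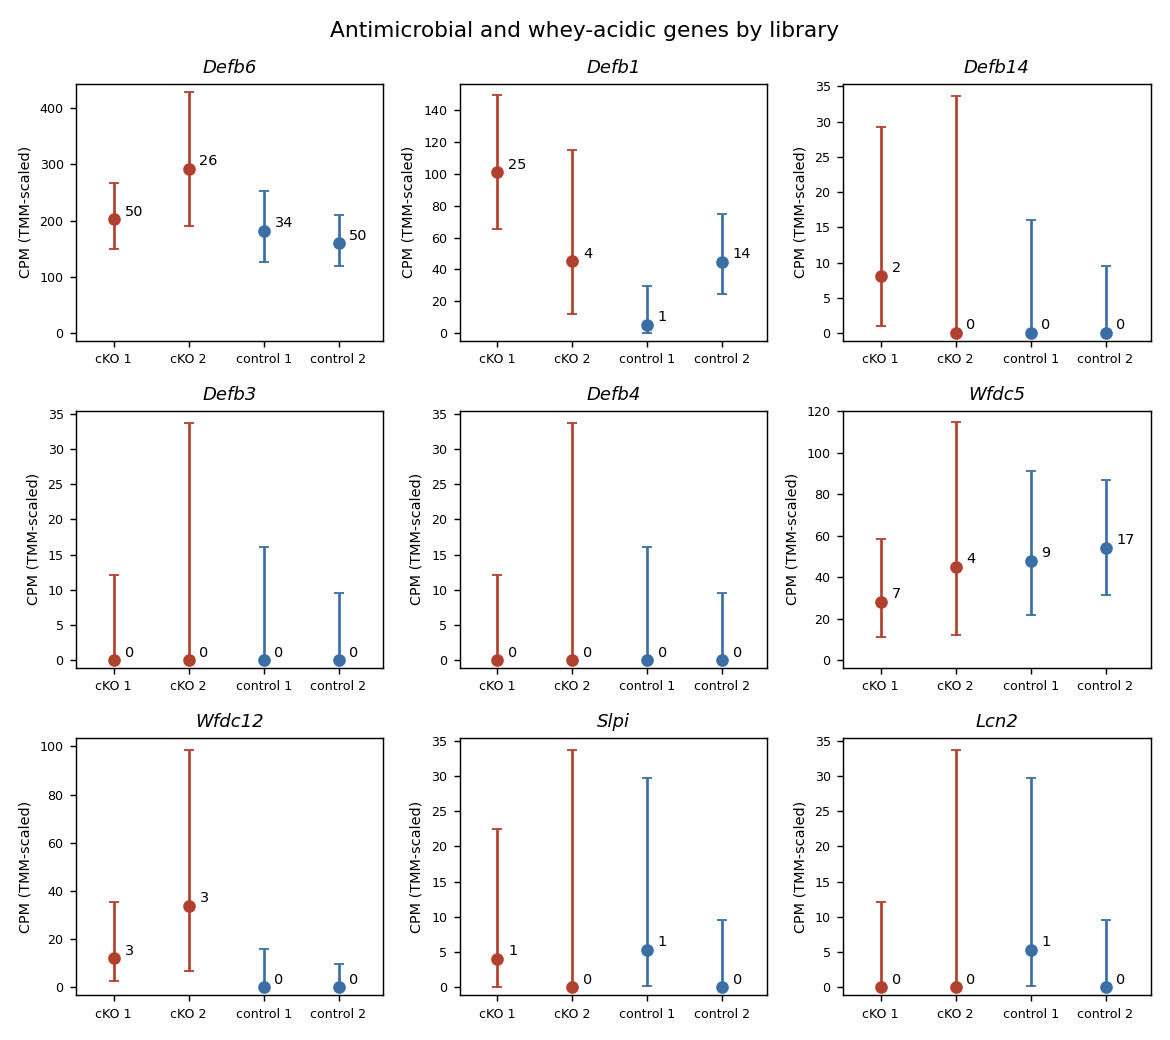
Normalised level of each gene (y axis, CPM after TMM scaling, a separate linear scale per panel) in the cKO libraries (red) and control libraries (blue), with exact 95% Poisson intervals (for a count of 0, a bar up to 3 counts) and the raw count beside each point. Defb6 was present in all libraries, Wfdc12 had counts only in cKO, and Defb3 and Defb4 had none.

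Defb6 (ENSMUSG00000050756, chromosome 8, 19275494 to 19278225, plus strand, in GRCm39, the build named in the submitters' processing notes) encodes a beta-defensin and was the most abundant member in every library. cKO replicates 1 and 2 held 50 and 26 counts, and control replicates 1 and 2 held 34 and 50. The normalised values were 202 and 292 CPM in cKO and 181 and 160 CPM in control. Both cKO libraries lay above both control libraries, by a margin smaller than the gap between the cKO libraries. The group means were 247 ± 63.7 CPM in cKO and 171 ± 15.4 CPM in control (SD, n = 2). The log2 fold change was 0.51 with a standard error of 0.45 (edgeR adjusted p 0.893, unadjusted p 0.279). Its 95% interval ran from -0.46 to 1.48, that is from 0.725-fold to 2.79-fold of control. These libraries do not settle whether there was a change within that range. With library totals as the only scaling the value was 0.24, and without cKO replicate 2, the shallowest library, it was 0.26.

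Defb6 also made up most of the beta-defensin RNA. Of the 43 genes of the table named Defb, 38 had no count in any library, and Defb6 took 160 of the 210 counts of the whole family (76.2%). Its share of Defb counts was 64.9% and 86.7% in the cKO libraries and 89.5% and 76.9% in the control libraries, with exact 95% intervals from 53.2% to 97.1% over the 4 libraries. The share was lowest in cKO replicate 1, where Defb1 had 25 of the 77 Defb counts. By the mean over tested genes, Defb6 stood at the 79.9th percentile of normalised level, against the 14.6th for Defb1 and the 8.25th for Wfdc5.

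Defb1 (ENSMUSG00000044748, chromosome 8, 22266615 to 22285201, plus strand), the defensin that epithelia make without induction, varied within both groups. cKO replicates 1 and 2 held 25 and 4 counts and control replicates 1 and 2 held 1 and 14, or 101 and 45.0 CPM in cKO and 5.34 and 44.7 CPM in control. cKO replicate 1 was highest and control replicate 1 lowest, and the other libraries were nearly level. The group means were 73.0 ± 39.7 CPM in cKO and 25.0 ± 27.8 CPM in control (SD, n = 2). The log2 fold change was 1.49 with a standard error of 0.86 (edgeR adjusted p 0.716, unadjusted p 0.107), and its 95% interval ran from -0.37 to 3.34. Without control replicate 1 the value was 0.78, without cKO replicate 2 it was 1.87, and without control replicate 2 it was 3.7. Without cKO replicate 1, Defb1 fell under the count filter and gave no value. The groups did not overlap under TMM scaling, but did with upper-quartile factors and with library totals.

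**Figure D2:**
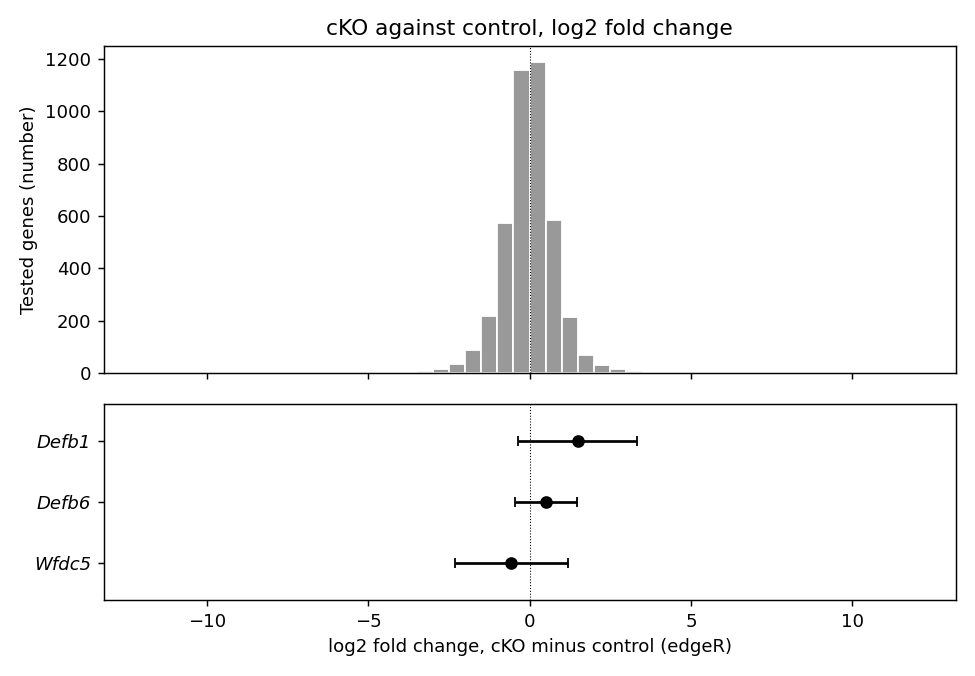
Log2 fold change, cKO minus control: above, the distribution over the 4243 tested genes in bins of 0.5 (y axis, number of genes); below, Defb1, Defb6 and Wfdc5 with 95% intervals from the edgeR fit. Each of the 3 intervals includes 0.

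Wfdc5 (ENSMUSG00000040154, chromosome 2, 164018247 to 164024662, minus strand) encodes a secreted protein of the WAP family. cKO replicates held 7 and 4 counts and control replicates 9 and 17, or 28.3 and 45.0 CPM in cKO and 48.0 and 54.3 CPM in control. Both cKO libraries were below both control libraries, although cKO replicate 2 and control replicate 1 differed by less than their counting intervals. The group means were 36.6 ± 11.8 CPM in cKO and 51.2 ± 4.43 CPM in control (SD, n = 2). The log2 fold change was -0.56 with a standard error of 0.82 (edgeR adjusted p 0.965, unadjusted p 0.501), and its 95% interval ran from -2.32 to 1.19. Without cKO replicate 1 the value was -0.24, and without control replicate 2 the gene fell under the count filter.

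Wfdc12 (ENSMUSG00000042845, chromosome 2, 164031151 to 164032528, minus strand), a single-domain WAP protein, lies 6.49 kb from Wfdc5. It had 3 counts in each cKO library and 0 in each control library, or 12.1 and 33.7 CPM against 0. Both groups stayed at or under 3 counts in each library, so no fold is given. Pooled over a group, 6 counts in cKO gave 17.8 CPM with an exact 95% Poisson interval of 6.55 to 38.8, and 0 counts in control allow up to 5.99 CPM (3 counts over the group). The interval for 6 counts is exact, while the limit for 0 counts is the fixed 3 counts, which is below the upper end of an exact interval of that kind. The gap between these limits therefore shows no separation of the groups. Neither limit covers the spread between libraries. When the members under the filter were added to the tested genes, the edgeR p of Wfdc12 was 0.0915 before and 0.710 after Benjamini-Hochberg adjustment (0.547 to 1.00 after adjustment over the alternative settings). A long non-coding RNA on the opposite strand, A730032A03Rik, spans the stretch between both genes and shares 125 of the 775 exon bases of Wfdc12 and 81 of the 2322 of Wfdc5. It had 0 counts in all libraries. Whether counting used strand is not stated.

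Non-overlap of the groups was common at this sample size. The groups did not overlap in 38.5% of all tested genes (18.9% higher and 19.6% lower in cKO), and the 3 tested members, whose groups did not overlap under TMM scaling, are to be read against that share. Wfdc12 was not among the tested genes. With 2 libraries a group, an exact permutation test of a single gene cannot give a p under 0.333.

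The remaining members were under detection. Defb14 (ENSMUSG00000046354, chromosome 8, 19244373 to 19245228), an inducible defensin, had 2 counts in cKO replicate 1 and 0 in the other libraries. Slpi (ENSMUSG00000017002, chromosome 2, 164195990 to 164231015) had 1 count in cKO replicate 1 and 1 in control replicate 1; it shares 1 exon base on the same strand with Mir7678, which had 1 count, in cKO replicate 1. Lcn2 (ENSMUSG00000026822, chromosome 2, 32274645 to 32278264) had 1 count, in control replicate 1. Defb4 (ENSMUSG00000059230, chromosome 8, 19248722 to 19251561) and Defb3 (ENSMUSG00000039775, chromosome 8, 19343376 to 19345307) had 0 counts in all 4. Pooled over a group, 0 counts allow up to 8.92 CPM in cKO and up to 5.99 CPM in control. These genes were therefore not detectable at this depth, which does not show that they are absent or equal between the groups.

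Levels were ordered with counts divided by feature length as well, although 3' libraries need not scale with length. On CPM per kilobase, Defb6 led with 765 ± 197 in cKO and 528 ± 47.6 in control (SD, n = 2). Defb1 followed with 83.7 ± 45.5 and 28.7 ± 31.9. In control Wfdc5 came next with 22.0 ± 1.91. In cKO, Wfdc12 (29.6 ± 19.7) and Defb14 (19.8 ± 28.0), both at or under 3 counts, stood between Defb1 and Wfdc5 (15.8 ± 5.07). Defb1 and Wfdc5 did not differ beyond the spread in control, where the SD of Defb1 exceeded its mean. The differences among Wfdc12, Defb14 and Wfdc5 in cKO were within their spread.

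Defb14, Defb4, Defb6 and Defb3 lie within 19244373 to 19345307 of chromosome 8, a span with 8 genes of the table, of which only 2 had a count and 1 (Defb6) was tested. Wfdc5, Wfdc12 and Slpi lie within 164018247 to 164231015 of chromosome 2, a span of 13 genes, of which 4 had a count and 1 (Wfdc5) was tested. Called genes numbered 0 in both spans.

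Among the other WAP genes, Wfdc21 took most counts. Of 18 genes named Wfdc, 7 had a count, and Wfdc21 took 820 of the 931 counts. Wfdc21, a WAP-domain gene on chromosome 11, held 242 and 27 counts in the knockout libraries and 67 and 484 in the floxed ones, or 979 and 303 CPM against 358 and 1546 CPM. The libraries with high values were cKO replicate 1 and control replicate 2, and the groups overlapped (log2 fold change -0.54, edgeR adjusted p 0.936). Without cKO replicate 2 its log2 fold change was 0.04, and without control replicate 2 it was 0.89. The cornified envelope gene loricrin (Lor), picked after its values were seen, had 4561 and 1911 CPM in cKO and 758 and 4471 CPM in control. Lor and Wfdc21 were thus highest in the same pair of libraries, which are also the deepest, and Defb1 was lowest in control replicate 1, the library where Lor was lowest too. The part of depth, or of what moves Lor, in these values was not tested.

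**Figure D3:**
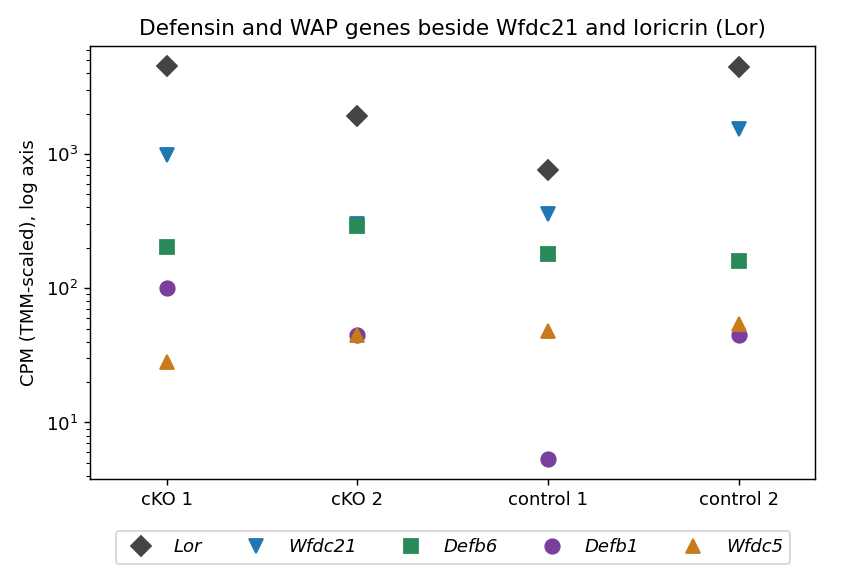
CPM after TMM scaling (y axis, log scale) of Lor, Wfdc21, Defb6, Defb1 and Wfdc5 in each library. Lor and Wfdc21 were high in cKO replicate 1 and control replicate 2, while Defb6 stayed between 160 and 292 CPM.

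The other genes of these families with at least 3 counts in a library were low. Wfdc17 was at 2, 10 (cKO), 9 and 5 counts (control; log2 fold change 0.71, edgeR adjusted p 0.967), a value that became -1.86 without cKO replicate 2. Wfdc3 had 0 and 7 counts against 7 and 7. Wfdc18 had 3 and 2 counts against 8 and 7, and Defb15 had 0 in both cKO libraries against 3 and 0.

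By likeness of profile over the 4 libraries, the genes nearest to Defb6 were Gm14539, Ly6e and Ctcf, at Euclidean distances of 0.052, 0.119 and 0.121 between centred log2 CPM profiles, out of 4240 genes. These distances rest on 4 libraries and are a description only.

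Genes that act with or upstream of the members were taken from lists written with earlier results of these data known. The called genes and medians of all these lists are therefore descriptions only. Over all tested genes, 0.66% were called higher and 0.189% lower in cKO, and each list's counts are to be read beside these shares. The list of signals that induce antimicrobial genes (cytokines, their receptors, NF-kappaB, C/EBP and STAT3 factors) had 41 genes, of which 12 were tested, 1 was higher in cKO and 0 were lower. Its median log2 fold change was 0.28, beside 0.01 over all tested genes. The inducers Il17a, Il17f, Il22, Il1a and Tnf had 0 counts in all libraries. Il36a, an epithelial cytokine, was the called gene, at 95, 10 (cKO), 1 and 0 counts (control; edgeR adjusted p 0.00378). limma-voom did not call it (adjusted p 0.388), and without cKO replicate 1 it fell under the count filter, so 0 genes of the list were called. Il36g was at 81, 35 (cKO), 14 and 44 counts (control), and its log2 fold change of 1.70 did not pass (adjusted p 0.174). Of the factors that bind C/EBP motifs, Cebpb was at 32, 74 (cKO), 52 and 92 counts (control; adjusted p 0.902), and Cebpa at 44, 15, 20 and 54 (adjusted p 0.965). Cebpd, also on the list, had 1 and 1 counts (cKO) against 5 and 5 (control) and was not among the tested genes.

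The list of genes induced by interleukin 17 in keratinocytes, which includes Lcn2, Defb3, Defb4 and Defb14, had 22 genes, of which 14 had a count and 3 were tested. Krt6a, a stress keratin, was higher, with 117 and 96 counts (cKO) beside 4 and 9 (control; log2 fold change 4.87, standard error 0.60, edgeR adjusted p 0.000620), and 0 genes were lower. Krt16, a stress keratin also tested on this list, was at 109, 68 (cKO), 72 and 212 counts (control). Its log2 fold change of 0.16 did not pass (edgeR adjusted p 0.992), nor did that of Il36g, given above. The chemokines Cxcl1, Cxcl2, Cxcl3 and Cxcl5, with Csf3 and Saa1, had 0 counts in all libraries. S100a8, an alarmin of stressed keratinocytes and neutrophils, was at 8, 5 (cKO), 2 and 3 counts (control), and S100a9 had 3 and 2 against 0 and 0. Neither was tested.

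Of 26 other antimicrobial genes, 19 had a count, 4 were tested, 2 were higher and 0 were lower. Sprr2a1, a small proline-rich protein, had 252 and 137 counts against 2 and 1 (edgeR adjusted p 4.47e-05), and Stfa1, a cysteine protease inhibitor, had 81 and 33 against 2 and 1 (adjusted p 0.000444). Both were put on the list with their change already known, so they say nothing of the list. The other tested genes, Retnla and Cxcl14, had log2 fold changes of 1.00 and 0.34 and did not pass (adjusted p 0.904 and 0.970). limma-voom gave Sprr2a1 a log2 fold change of 7.30, beside 7.56 in edgeR, and Stfa1 one of 5.47, beside 5.69, but called neither (adjusted p 0.148 and 0.320). Both belong to families of related genes between which counting could split reads, and this was not tested. The cathelicidin gene Camp and the lectin gene Reg3g had 0 counts in all libraries. Among 21 partners and targets (receptors, proteases held by WAP inhibitors, crosslinking enzymes), 8 were tested, 1 was higher and 0 were lower, with a median of 0.45. Klk6, a secreted serine protease, was higher, at 61 and 32 counts in cKO beside 0 in each control library (edgeR adjusted p 0.000444; limma-voom 0.152). Grn, whose granulin precursor SLPI protects from cleavage, was at 3, 1 (cKO), 15 and 26 counts (control), and its log2 fold change of -2.72 did not pass (adjusted p 0.265). The neutrophil proteases Elane, Ctsg and Prtn3 had 0 counts, and Ccr6 had 2, both in cKO replicate 2. The WAP family list of 21 genes had 8 with a count and 3 tested, of which 0 were called in either direction (median -0.54).

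Neutrophils also make LCN2 and SLPI. Of 13 neutrophil markers, 9 had 0 counts in all libraries, among them the defining genes Ngp, Mpo and Ly6g, and the summed level was 44.5 and 101 CPM in cKO and 42.7 and 41.5 CPM in control. Markers of the upper hair follicle (7 of 7 with a count) summed to 6397 and 19016 CPM in cKO and 6003 and 6834 CPM in control. Cst6 alone gave 16026 of the 19016 CPM in cKO replicate 2. Without Cst6 the sums were 2325 and 2989 CPM in cKO and 3682 and 4784 CPM in control. Krt17, most of these control sums, was at 1314 and 1652 CPM in cKO against 3314 and 4436 CPM in control. Krt79, of the same list, went the other way, at 902 and 1056 CPM in cKO against 272 and 255 CPM in control. cKO replicate 2, the library with the highest Defb6, was thus highest for Cst6 and Krt79, but not for Krt17 or the sum without Cst6. This library was also highest in summed markers of sebaceous gland (2484 CPM), dermal fibroblasts (607 CPM), melanocytes (427 CPM) and neutrophils. It was not highest in those of macrophages and dendritic cells, T cells, growing hair shaft, skeletal muscle or basal, suprabasal and granular keratinocytes. The part of these markers in the Defb6 value was not tested. Granular markers (6 of 6) summed to 17751 and 9744 CPM in cKO against 2657 and 7881 CPM in control. Flg alone gave 8968 and 5383 CPM in cKO against 107 and 313 CPM in control, and without it the sums overlapped, at 8782 and 4361 CPM in cKO and 2551 and 7568 CPM in control. Ivl was at 615 and 528 CPM in cKO against 1371 and 1268 CPM in control. With or without Flg, the sum was highest in cKO replicate 1 and lowest in control replicate 1, as Defb1 was, and its part in the Defb1 values was not tested.

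Among genes that the deposited table annotates with defense response to bacterium, a term chosen because 8 of the 9 members carry it (all but Wfdc5), 89 of 182 had a count and 21 were tested. Of these 1 was higher (Gsdmc) and 0 were lower in cKO, beside 0.66% of all tested genes higher and 0.189% lower. Their median log2 fold change was 0.06, beside 0.01 over all tested genes.

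**Figure D4:**
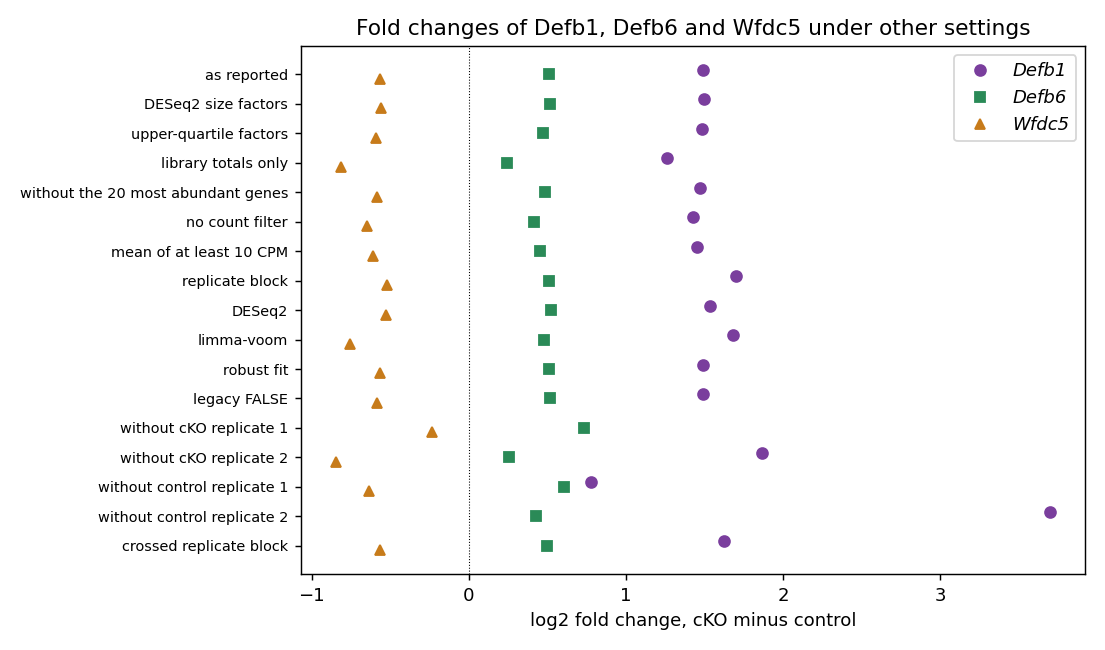
Log2 fold change, cKO minus control (x axis), of Defb1, Defb6 and Wfdc5 as reported and under each alternative setting (y axis). Each gene kept its sign wherever it gave a value, and Defb1 ranged most widely, from 0.78 to 3.7.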

How the data were processed

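Epidermal RNA of 2 cKO and 2 control libraries was prepared with a 3' transcriptome kit, per the labels' protocols. The authors deposited 1 table of raw counts per gene. The submitters' processing notes name Trim Galore 0.6.7, Trimmomatic 0.39, cutadapt 3.7, STAR 2.7.10a, featureCounts 2.0.1 and GRCm39; settings for strand, molecular identifiers and reads with several alignments are not given in the sources used here. RefSeq promoters and GENCODE M21 transcripts are of GRCm38, and their coordinates were not mixed with those of the table.

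Counts were tested in edgeR 4.0.16 (R 4.3.3): filterByExpr (minimum count 10, minimum total 15), which kept 4243 genes with 87.6% of counts, TMM factors (0.833 to 1.12), estimateDisp, glmQLFit and glmQLFTest on genotype alone, Benjamini-Hochberg adjustment and a threshold of 0.05. Standard errors were derived from each gene's fold change and F statistic. The 4 members under the filter with a count, and Stim2, were added in a second fit. Transcripts were compared with blastn 2.17.0. The fit was tested on simulated data with changes larger than the fold changes of the tested members. Whether it would find changes of the members' size was not tested. Alternatives used DESeq2 1.42.0, limma 3.58.1, other scalings, filters, a replicate block and each library left out.

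The members and gene lists were chosen with earlier results of these data known. Named genes are the 9 members, Stim1, Stim2, Defb or Wfdc genes with at least 3 counts in a library, called list genes and otherwise the 2 list genes with the largest change at a mean of at least 10 CPM, the top marker of each cell type list, and the 3 genes most like the most abundant member. Other genes with values were chosen after these were seen.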

Additional observations from a re-analysis of the deposited data

How the results depend on the processing

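Among the members that a setting tested, none was called under any of the 16 alternative settings. Defb3 and Defb4, with 0 counts, entered no fit, so these settings say nothing of them. The other genes under detection were all tested where no count filter was used, but not in every setting. The signs of Defb1 (15 settings with a value), Defb6 (16) and Wfdc5 (15) did not change, with values from 0.78 to 3.7, 0.24 to 0.74 and -0.84 to -0.24. Depth limits the 6 genes under detection most in cKO replicate 2. Counts over all genes did depend on the setting, and the cause was not tested. As reported they were 28 higher and 8 lower. They were 26 and 15 with library totals, 49 and 26 with no count filter, 40 and 15 at a mean of at least 10 CPM, and 12 and 3 with limma-voom. Leaving out 1 library in turn gave 34 to 59 higher and 8 to 34 lower genes, where a lone library is assumed to vary like the other group. With the replicate number as a block, the pairing gave 16 higher and 1 lower; the labels do not say that a number marks a shared animal or day. Deviations of same-numbered libraries had a weak negative correlation (r = -0.22 across genes), which rests on 1 difference within each group. A crossed pairing, chosen after seeing the data, gave 90 higher and 57 lower genes as a replicate block. With library totals the median log2 fold change of all tested genes shifted from 0.01 to -0.24. Some genes not called as reported, Wfdc genes and markers of other cell types (Col3a1, fibroblast; Soat1, sebaceous gland; Cd3g, T cell; Dct, melanocyte), changed sign. With limma-voom, Col3a1 was at -1.20 and Wfdc17 at -0.75. With 1 library left out, values ran from -1.89 to 2.58 for Col3a1, from -1.86 to 1.84 for Wfdc17, from -1.70 to 0.89 for Wfdc21, from -0.29 to 0.20 for Soat1, from -1.22 to 0.19 for Cd3g and from -0.56 to 1.62 for Dct. Col3a1 was called at 2.58 without cKO replicate 1 (edgeR adjusted p 0.00622). Searching only the 250 bases before the start left NFAT-core matches in 2 of 5 promoters.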
